A study of Mus musculus with 4 samples.

Results

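G3bp1 and 7 genes whose proteins are known to work with G3BP1 in stress granules, namely G3bp2, Caprin1, Usp10, Ubap2l, Tia1, Tial1 and Nufip2, were followed by transcript level through the cells of mouse nasal mucosa. The 8 genes were taken by symbol from the 27998 genes listed for each library, and each symbol named 1 gene. The comparison asks which of the 7 partners had the same pattern as G3bp1 from one class of cells to the next, and which had the same difference as G3bp1 with ovalbumin (OVA), the allergen of this allergic rhinitis model. Droplet single-cell RNA-seq had been run on CD45+ cells, that is, cells sorted for the leukocyte surface protein encoded by Ptprc, from C57BL/6 mice aged 8 weeks. The 4 groups, named Vehicle, Ribavirin, Vehicle-OVA and Ribavirin-OVA, differed in whether mice had received OVA and in whether they had received ribavirin, an antiviral drug, or its vehicle, and each group was 1 library. According to the study's methods, mice of the model were sensitised to OVA by injection with alum and then challenged through the nose. How many mice made up a library is not given in the sources used here. With 1 library per group the spread between mice is unknown, so no difference was tested. All intervals are 95% intervals that cover counting error only, and library and group cannot be told apart.

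Stress granules are cytoplasmic assemblies of mRNA and RNA-binding proteins that form when the start of translation is blocked, often after phosphorylation of the initiation factor eIF2alpha. G3BP1 and its paralogue G3BP2 are the scaffold: they bind the mRNA that is set free and condense with it. CAPRIN1 and the deubiquitinase USP10 bind the same domain of the G3BP proteins with opposite effects, CAPRIN1 favouring condensation and USP10 opposing it. UBAP2L and NUFIP2 are further RNA-binding partners of the G3BP proteins, and UBAP2L is known to help granules form. TIA1 and TIAL1 are paralogous RNA-binding proteins with prion-like tails that repress translation and are found in granules without being direct G3BP partners. Transcript counts hold no information on the amount of these proteins or on whether granules had formed.

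The genes lie apart in the genome (GRCm38, gene bounds of GENCODE M21), with only G3bp1 (chr11:55469685-55504838, plus strand) and Nufip2 (chr11:77686155-77741921, plus strand) on the same chromosome. G3bp2 lies at chr5:92052146-92083719, Caprin1 at chr2:103762941-103797649, Ubap2l at chr3:90000140-90052628 and Tial1 at chr7:128439777-128461717, all on the minus strand. Usp10 lies at chr8:119910360-119957560 and Tia1 at chr6:86404219-86433405, both on the plus strand. Their longest annotated transcripts ran from 3726 bases for Usp10 to 6703 bases for G3bp1, which matters below because differences with OVA followed transcript length over all genes. The Ubap2l locus overlaps 4933434E20Rik on the opposite strand, which had 25495 UMIs over the 4 libraries beside 69647 for Ubap2l. The other genes that overlap a member had between 0 and 416 UMIs.

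The promoters of 3 genes are shown because the results turn on them: G3bp1 as the reference, Caprin1 as the partner with the highest mean correlation with it over classes when all UMIs are used, and Ubap2l as the partner whose UMIs per G3bp1 UMI were lower with OVA in 11 of 11 classes, within counting error in neutrophil-like cells. Each stretch is 300 bases, from 250 before to 50 after a RefSeq transcript start (GRCm38.p6), written 5′ to 3′ on the gene's strand, and covers chr11:55469502-55469801 (plus), chr2:103797029-103797328 (minus) and chr3:90052431-90052730 (minus, the first of 2 listed starts). Capitals mark matches on either strand to the GC box GGGCGG, the CCAAT box CCAAT, the E-box CACGTG, the ETS core CGGAAG and the TATA box TATAAA, and neighbouring matches can share bases.
G3bp1: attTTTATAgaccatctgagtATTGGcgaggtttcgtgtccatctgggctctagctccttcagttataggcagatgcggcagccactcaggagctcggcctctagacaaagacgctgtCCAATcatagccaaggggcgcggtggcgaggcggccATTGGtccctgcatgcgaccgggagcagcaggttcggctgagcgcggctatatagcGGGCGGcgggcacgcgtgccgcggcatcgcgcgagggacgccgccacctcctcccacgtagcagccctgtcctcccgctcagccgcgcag
Caprin1: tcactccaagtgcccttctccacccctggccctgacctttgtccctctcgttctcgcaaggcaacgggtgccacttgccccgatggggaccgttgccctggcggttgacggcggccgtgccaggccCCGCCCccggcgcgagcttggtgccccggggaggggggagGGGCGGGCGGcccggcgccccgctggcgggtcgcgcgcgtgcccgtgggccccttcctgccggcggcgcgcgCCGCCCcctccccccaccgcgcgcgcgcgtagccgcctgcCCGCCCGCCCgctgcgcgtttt
Ubap2l: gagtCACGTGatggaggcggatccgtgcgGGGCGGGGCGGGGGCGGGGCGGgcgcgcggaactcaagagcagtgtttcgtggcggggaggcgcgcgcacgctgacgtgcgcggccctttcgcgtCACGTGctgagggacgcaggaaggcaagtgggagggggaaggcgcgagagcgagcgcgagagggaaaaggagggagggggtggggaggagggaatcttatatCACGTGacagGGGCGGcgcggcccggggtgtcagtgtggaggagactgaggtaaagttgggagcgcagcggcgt

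The G3bp1 promoter held 3 CCAAT boxes, 1 GC box and 1 TATA box, the Caprin1 promoter 6 GC boxes and none of the other motifs, and the Ubap2l promoter 5 GC boxes and 3 E-boxes. Of 32851 RefSeq promoters of the same length, 35.66% held a GC box, 37.41% a CCAAT box, 7.15% an E-box, 16.85% an ETS core and 13.62% a TATA box. None of the 5 motifs was found in the windows of Usp10 and Tia1, and the Nufip2 window held 1 GC box and 1 CCAAT box. A match is a description of the letters and not a binding site, and the 3 promoters shared the GC box alone.

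The deposited libraries held 10311 to 28277 cells and 91742940 to 171873110 UMIs (unique molecular identifiers, each counting 1 captured transcript). After filters on cells, 8817 to 25727 cells per library remained, and 81.57% to 85.09% of them were placed in a class by marker genes. Classes are called by the cells whose markers they carried, for example macrophage-like (C1qa, Mrc1), neutrophil-like (Csf3r, Retnlg) or T cell-like (Cd3e), and 11 classes had enough cells in every library. One of these, epithelial-like, is not a leukocyte class: its Ptprc level was 45.83 to 161.4 CPM although the cells had been sorted for CD45. A level is given in CPM, the UMIs of a gene per 1000000 UMIs summed over all cells of a class in a library. The sums held 70 to 10481 cells, and a member had 9 to 5774 UMIs in them, with 25 of 352 values under 50 UMIs. All 8 members had UMIs in every class and library. Libraries shared 57 to 174 cell barcodes, 0.553% to 0.909% of the smaller library of a pair.

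To see which partners had the pattern of G3bp1 over cell classes, levels were first read class by class. G3bp1 was lowest in neutrophil-like cells in all 4 libraries, at 61.87 CPM in Vehicle, 52.02 in Vehicle-OVA, 51.95 in Ribavirin and 67.34 in Ribavirin-OVA. Its highest class was cDC-like (conventional dendritic) cells in 3 libraries and B cell-like cells in Ribavirin-OVA, and the order of most neighbouring classes between these ends did not exceed counting error.

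**Figure D1:**
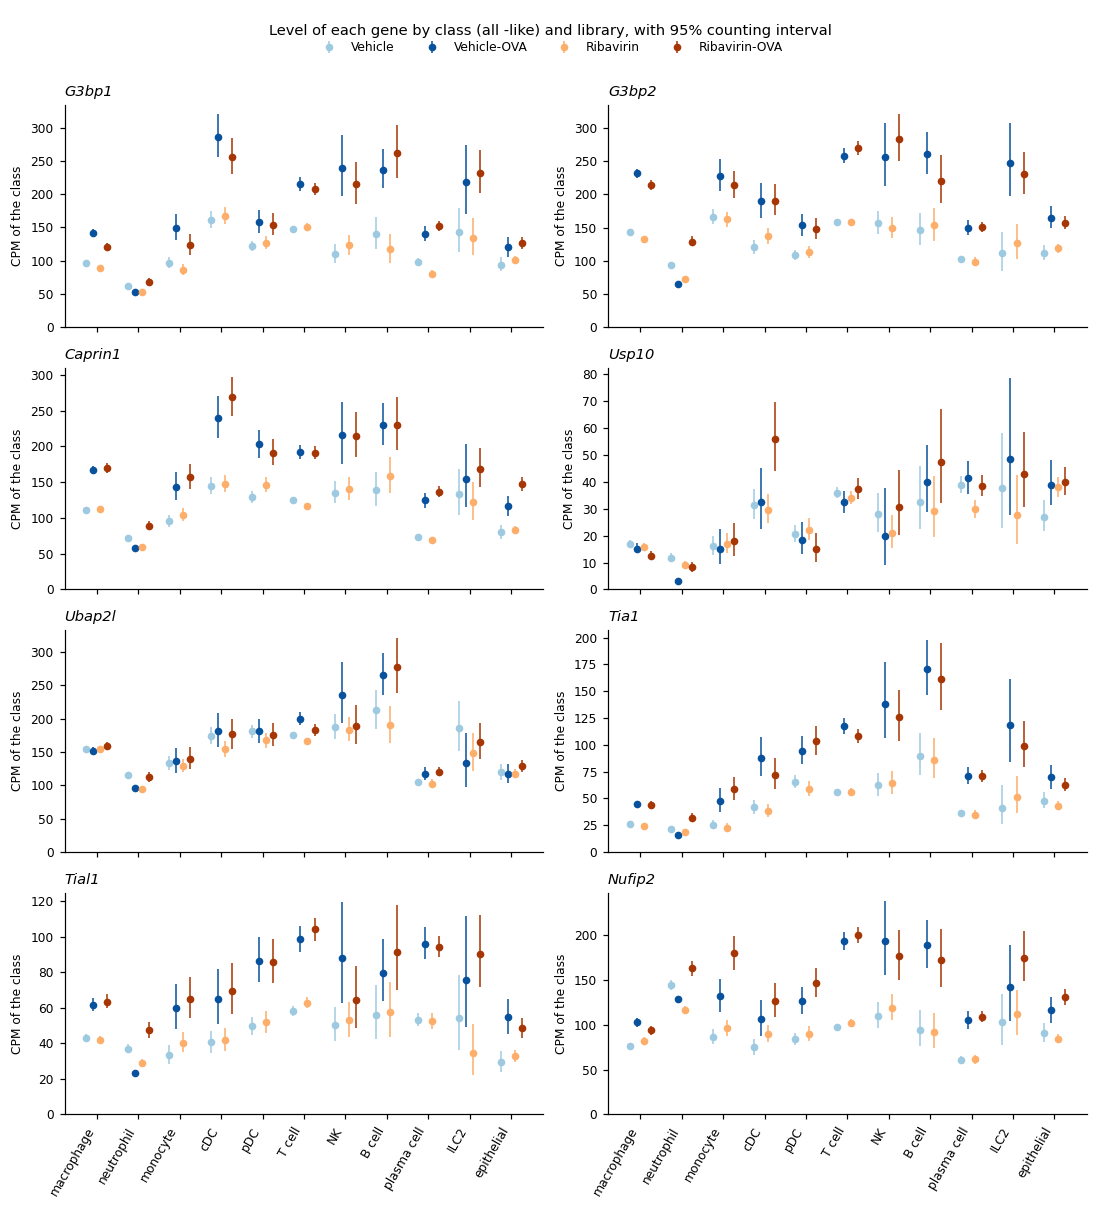
Level of each of the 8 genes (CPM, linear axis from 0) in 11 cell classes, with 1 point per library and error bars that give the exact Poisson 95% interval of the UMI count. G3bp1 is lowest in neutrophil-like cells in all 4 libraries (51.95 to 67.34 CPM), whereas Nufip2 is at 116.9 to 163 CPM there and lowest in plasma cell-like or macrophage-like cells.

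Caprin1 had an order of classes close to that of G3bp1. It was lowest in neutrophil-like cells in all 4 libraries (71.29 CPM in Vehicle, 57.45 in Vehicle-OVA, 59.45 in Ribavirin and 89.04 in Ribavirin-OVA) and highest in cDC-like cells in 3 of them, with B cell-like cells highest in Ribavirin. In cDC-like cells its level was 145.1 CPM in Vehicle, 240.1 in Vehicle-OVA, 147.3 in Ribavirin and 268.9 in Ribavirin-OVA. In Vehicle the gap between plasma cell-like (73.79 CPM) and neutrophil-like cells did not exceed counting error, while in the other libraries neutrophil-like cells stood below the next class beyond it. One class where it parted from G3bp1 was T cell-like cells: they came second for G3bp1 in Vehicle and Ribavirin, yet Caprin1 had 0.846 and 0.768 UMIs per G3bp1 UMI there against 1.15 and 1.26 in macrophage-like cells. T cell-like cells had the lowest such ratio in Ribavirin only. The lowest class was plasma cell-like in Vehicle (0.749) and ILC2-like in Vehicle-OVA (0.708) and Ribavirin-OVA (0.725).

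G3bp2, the paralogue, was also lowest in neutrophil-like cells in all 4 libraries, at 93.56 CPM in Vehicle, 64.94 in Vehicle-OVA, 72.95 in Ribavirin and 128.8 in Ribavirin-OVA. The top of its order was another: it was highest in monocyte-like cells without OVA (165.9 CPM in Vehicle and 162.3 in Ribavirin) and in B cell-like or NK-like cells with OVA (260.9 CPM in Vehicle-OVA and 284 in Ribavirin-OVA), but in no library did the highest class exceed the next, T cell-like cells, beyond counting error. Per G3bp1 UMI, G3bp2 was lowest in cDC-like cells in all 4 libraries, between 0.663 and 0.821, and highest in monocyte-like, macrophage-like or neutrophil-like cells, between 1.63 and 1.91. The 2 scaffold paralogues thus stood in a ratio to each other that varied 2.3-fold to 2.57-fold between the extreme classes of a library.

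Usp10, the G3BP binder that opposes condensation, had the least UMIs of the members. It was lowest in neutrophil-like cells in all 4 libraries, beyond counting error, at 11.84 CPM in Vehicle, 3.13 in Vehicle-OVA, 9.11 in Ribavirin and 8.21 in Ribavirin-OVA. Macrophage-like and monocyte-like cells were also low, with 12.59 to 17.04 CPM in macrophage-like cells, and the highest class was a different one in each library, from 38.11 to 55.82 CPM, never beyond the counting error of the next.

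For Ubap2l, B cell-like cells were highest in all 4 libraries (212.1 CPM in Vehicle, 265.6 in Vehicle-OVA, 190.0 in Ribavirin and 277.2 in Ribavirin-OVA), beyond the counting error of the next class in Ribavirin-OVA alone, and neutrophil-like or plasma cell-like cells were lowest. Relative to G3bp1, neutrophil-like cells had the most Ubap2l in all 4 libraries, 1.66 to 1.86 UMIs per G3bp1 UMI.

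The TIA1 family divided in a similar way. Tia1 was highest in B cell-like cells in all 4 libraries (89.74 CPM in Vehicle, 170.8 in Vehicle-OVA, 85.9 in Ribavirin and 161.5 in Ribavirin-OVA) and lowest in neutrophil-like cells (15.93 to 31.93 CPM), with macrophage-like and monocyte-like cells next. B cell-like cells exceeded the next class beyond counting error in the libraries without OVA only. Its paralogue Tial1 was highest in T cell-like cells in all 4 libraries (58.08 CPM in Vehicle, 98.42 in Vehicle-OVA, 62.93 in Ribavirin and 104.1 in Ribavirin-OVA), beyond the counting error of the next class in Ribavirin-OVA alone. Tial1 was lowest in epithelial-like cells in Vehicle (29.39 CPM) and in neutrophil-like cells in the other 3 libraries (23.29 to 47.44 CPM).

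Nufip2 did not have the pattern of G3bp1. In Vehicle it was highest in neutrophil-like cells, the lowest class of G3bp1, at 144.6 CPM and beyond the counting error of the next class. In the other libraries neutrophil-like cells had 129.0 CPM in Vehicle-OVA, 116.9 in Ribavirin and 163 in Ribavirin-OVA, while macrophage-like cells were at 75.94 CPM in Vehicle, 82.47 in Ribavirin, 102.8 in Vehicle-OVA and 93.77 in Ribavirin-OVA. The lowest class was plasma cell-like without OVA and macrophage-like with OVA. Neutrophil-like cells had 2.25 to 2.48 Nufip2 UMIs per G3bp1 UMI, the highest of the 11 classes in each library, and cDC-like cells 0.372 to 0.54, the lowest, so this ratio varied 4.16-fold to 6.66-fold between classes.

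To put a number on likeness, Pearson's r with G3bp1 was taken over the 11 classes within each library, on log2(CPM + 1), and averaged over the 4 libraries. Caprin1 had a mean r of 0.872 (0.84 in Vehicle, 0.94 in Vehicle-OVA, 0.82 in Ribavirin and 0.88 in Ribavirin-OVA) and ranked 58 of 12531 genes. Tia1 (0.781), Ubap2l (0.774) and Usp10 (0.756) came next, at ranks 361, 396 and 508. G3bp2 and Tial1 both had 0.634, at ranks 1437 and 1447, and Nufip2 had 0.0957, at rank 7410, with r from −0.33 in Vehicle to 0.37 in Vehicle-OVA. The median of all genes was 0.208, so 6 partners lay above the typical gene and Nufip2 below it. The first place of Caprin1 depended on depth: with each cell thinned to 1000 UMIs its mean r was 0.653 (0.6535), beside 0.691 (0.6905) for Usp10, 0.661 for Tia1 and 0.643 for Ubap2l, while Tial1 had 0.336 and Nufip2 −0.0803.

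The 5 genes with the highest mean r were Snrpf and Snrpd1, which encode core proteins of splicing particles, Set, a histone chaperone, Npm1, a nucleolar protein, and Rpsa, a protein of the small ribosomal subunit, with mean r from 0.922 to 0.93. The points of each correlation share library and class totals, and neutrophil-like cells were the low end for most genes. Without neutrophil-like cells the mean r was 0.765 for Caprin1, 0.694 for Ubap2l, 0.631 for Tia1, 0.469 for Usp10, 0.467 for Nufip2, 0.388 for Tial1 and 0.329 for G3bp2, beside a median of all genes of 0.10. The value of every partner thus depended on that class. Without it Nufip2 lay above Tial1 and G3bp2, and no partner lay below the typical gene.

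**Figure D2:**
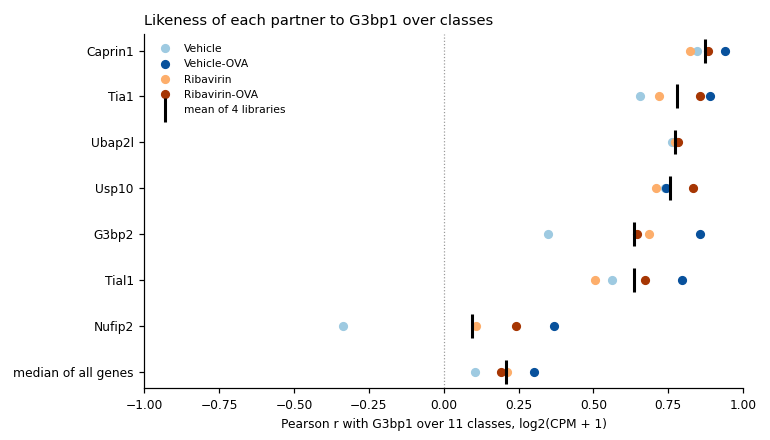
Pearson's r of each partner with G3bp1 over 11 cell classes on log2(CPM + 1), with 1 point per library, a bar at the mean of the 4 libraries, and the median of all genes as the lowest row. Caprin1 lies highest (mean 0.872) and Nufip2 lowest (mean 0.0957, from −0.33 to 0.37).

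Macrophage-like and neutrophil-like cells were set against each other because the study's question is about macrophages and because neutrophil-like cells were the low end of G3bp1. Here and below, a member was counted as higher when it was at least 25% above, and as lower when it was at least 20% below, the level it was set against. In Vehicle 5 of 8 members were higher in macrophage-like cells (43.8% of all genes tested were), in Vehicle-OVA 7 of 8 (68.2%), in Ribavirin 7 of 8 (52.2%) and in Ribavirin-OVA 7 of 8 (51.4%). The member that was not higher in any library was Nufip2, with a macrophage-like to neutrophil-like ratio of 0.525 (0.498 to 0.554) in Vehicle, 0.706 (0.667 to 0.747) in Ribavirin, 0.797 (0.755 to 0.841) in Vehicle-OVA and 0.575 (0.535 to 0.619) in Ribavirin-OVA. Caprin1 was 1.55 (1.46 to 1.65), 1.88 (1.77 to 2.01), 2.91 (2.75 to 3.07) and 1.91 (1.76 to 2.07) times as high in macrophage-like cells in the same order of libraries, near the G3bp1 ratios of 1.56, 1.71, 2.72 and 1.79. Vehicle-OVA gave the largest ratio for every member except Ubap2l, and the median log2 ratio of all genes was also largest there, at 1.03 against 0.18 to 0.38 in the other libraries.

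To ask which partners differed with OVA as G3bp1 did, Vehicle-OVA was set against Vehicle and Ribavirin-OVA against Ribavirin, pairs that share no library. In macrophage-like cells G3bp1 was at 96.66 CPM in Vehicle, 141.7 in Vehicle-OVA, 88.94 in Ribavirin and 120.4 in Ribavirin-OVA. G3bp2 was at 143, 231.6, 132.3 and 213.8 CPM in the same order, 1.62-fold (1.55 to 1.69) and 1.62-fold (1.54 to 1.69) higher with OVA in the vehicle and ribavirin pairs. Caprin1 was at 110.7, 166.9, 112 and 169.9 CPM, 1.51-fold (1.44 to 1.58) and 1.52-fold (1.44 to 1.6) higher. For all 3 genes the libraries with and without OVA did not overlap, and for G3bp2 and Caprin1 the intervals of the 2 pairs lay on top of each other. The share of all genes whose libraries separated in this way was not computed. The median log2 ratio of all genes tested was 0.23 in both pairs, so the separation cannot be read as particular to these genes.

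Tia1 had the largest ratio among the members in macrophage-like cells, with intervals that overlapped those of G3bp2 in both pairs. It was at 26.17 CPM in Vehicle, 44.73 in Vehicle-OVA, 23.73 in Ribavirin and 43.78 in Ribavirin-OVA, 1.71-fold (1.55 to 1.88) and 1.85-fold (1.66 to 2.06) higher with OVA. Tial1 was at 43.04, 61.73, 41.73 and 63.45 CPM, 1.43-fold (1.33 to 1.55) and 1.52-fold (1.4 to 1.66) higher. Tia1 and Tial1 were thus higher in each library with OVA than in either without, as were G3bp1, G3bp2, Caprin1 and Nufip2. Nufip2, at 75.94, 102.8, 82.47 and 93.77 CPM, was 1.35-fold (1.28 to 1.44) and 1.14-fold (1.06 to 1.21) higher.

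Ubap2l and Usp10 did not share this difference in macrophage-like cells. Ubap2l was at 154.0 CPM in Vehicle, 151.9 in Vehicle-OVA, 154.1 in Ribavirin and 158.6 in Ribavirin-OVA, with ratios of 0.987 (0.942 to 1.03) and 1.03 (0.979 to 1.08) whose intervals hold no difference as large as that of G3bp1, 1.47-fold (1.39 to 1.54) and 1.35-fold (1.27 to 1.44). Usp10 was at 17.04, 15.21, 15.81 and 12.59 CPM, with ratios of 0.893 (0.771 to 1.03) and 0.796 (0.67 to 0.944), so the interval lay below 1 in the ribavirin pair alone. In counts, 6 of 8 members were at least 25% higher in the vehicle pair, where 43.0% of 11306 genes tested were, and 5 of 8 in the ribavirin pair, where 43.2% of 11258 were. No member was at least 20% lower in the vehicle pair (19.0% of genes were) and 1 of 8, Usp10, was in the ribavirin pair (17.5%).

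In T cell-like cells 6 of 8 members were higher with OVA in the vehicle pair (52.7% of genes tested were) and 6 of 8 in the ribavirin pair (54.2%), the exceptions in both being Usp10 and Ubap2l. Here Tia1 and Nufip2 had the largest ratios. Tia1 was at 56.23 CPM in Vehicle, 117.4 in Vehicle-OVA, 56.16 in Ribavirin and 107.9 in Ribavirin-OVA, 2.09-fold (1.92 to 2.26) and 1.92-fold (1.77 to 2.09) higher. Nufip2 was at 97.94, 193.8, 102.6 and 200.4 CPM, 1.98-fold (1.86 to 2.11) and 1.95-fold (1.84 to 2.07) higher. For Nufip2 these are larger ratios than the 1.35 and 1.14 of macrophage-like cells, with intervals that do not meet.

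**Figure D3:**
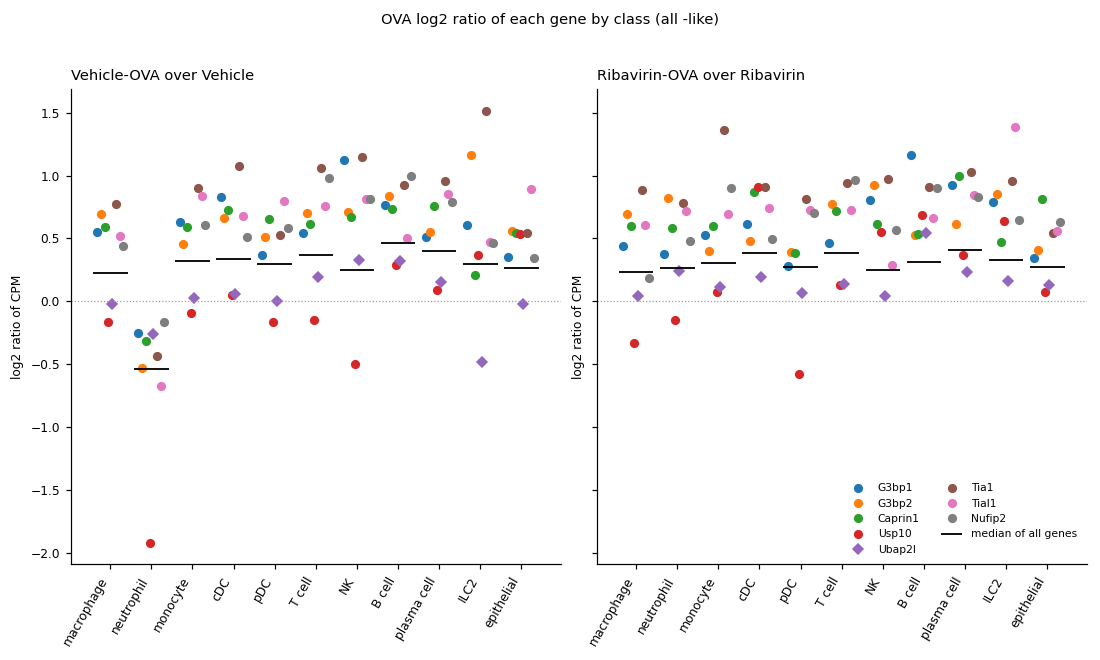
Log2 ratio of the CPM with OVA to the CPM without, 1 point per gene, in 11 cell classes for the vehicle pair (left) and the ribavirin pair (right), with a line at the median of all genes tested in the class and no error bars. In macrophage-like cells Tia1 lies highest in both pairs (0.77 and 0.88), Ubap2l lies near 0 (−0.02 and 0.04), and in neutrophil-like cells of the vehicle pair all 8 genes lie below 0.

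Other antigen-presenting and myeloid classes gave further values. In monocyte-like cells Tia1 was at 25.33 CPM in Vehicle, 47.2 in Vehicle-OVA, 22.76 in Ribavirin and 58.57 in Ribavirin-OVA, 1.86-fold (1.38 to 2.51) and 2.57-fold (1.97 to 3.36) higher with OVA. Ubap2l was at 133.1, 135.7, 129.2 and 140.0 CPM in the same cells and order, with ratios of 1.02 (0.868 to 1.19) and 1.08, whose interval also held 1. Tia1 thus had the largest ratio in monocyte-like as in macrophage-like cells, in both pairs, and Ubap2l was within counting error of no difference in each. Tial1 was close behind Tia1 in monocyte-like cells of the vehicle pair, at 33.38 CPM in Vehicle and 59.66 in Vehicle-OVA. In cDC-like cells, the class with the most G3bp1 in 3 libraries, Caprin1 was 1.66-fold (1.43 to 1.92) and 1.83-fold (1.6 to 2.08) higher with OVA, beside 1.78-fold (1.55 to 2.04) and 1.53-fold (1.34 to 1.75) for G3bp1. Usp10 differed between the pairs there, at 31.26 CPM in Vehicle, 32.45 in Vehicle-OVA, 29.72 in Ribavirin and 55.82 in Ribavirin-OVA, 1.04-fold (0.693 to 1.52) and 1.88-fold (1.39 to 2.52).

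Among lymphoid classes, plasma cell-like cells, the antibody secretors, had Caprin1 at 73.79 CPM in Vehicle, 124.6 in Vehicle-OVA, 68.55 in Ribavirin and 136.8 in Ribavirin-OVA, 1.69-fold (1.52 to 1.87) and 2-fold (1.996, 1.82 to 2.19) higher with OVA, the largest ratio of Caprin1 in both pairs. Tial1 was at 53.13, 96.12, 52.42 and 94.37 CPM there, 1.81-fold (1.61 to 2.03) and 1.8-fold (1.61 to 2.01) higher. Both partners thus had libraries with and without OVA that did not overlap. By the rule for higher given above, 6 members and 54.88% of genes tested were higher in plasma cell-like cells of the vehicle pair. In the ribavirin pair 7 members and 55.14% of genes were. The share of all genes whose libraries separated was not computed, so the separation cannot be read as particular to Caprin1 and Tial1. In ILC2-like cells (group 2 innate lymphoid cells), the class with the fewest UMIs, Tia1 rested on 22 UMIs in Vehicle, 39 in Vehicle-OVA, 37 in Ribavirin and 90 in Ribavirin-OVA, and its ratios of 2.85 (1.65 to 5.05) and 1.94 (1.31 to 2.92) were correspondingly wide. In NK-like cells Usp10 rested on 61, 9, 47 and 27 UMIs, too few to tell its ratios of 0.706 (0.308 to 1.43) and 1.46 (0.877 to 2.4) from 1.

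Medians over the 11 classes put Tia1 first and Ubap2l and Usp10 last in both pairs. The median ratio with OVA over classes was 1.47 in the vehicle pair and 1.44 in the ribavirin pair for G3bp1, 1.58 and 1.53 for G3bp2, 1.54 and 1.52 for Caprin1, 1.5 and 1.56 for Nufip2, 1.7 and 1.64 for Tial1 and 1.9 and 1.88 for Tia1. For Ubap2l it was 1.02 and 1.1, and for Usp10 0.937 and 1.1. In the ribavirin pair all 11 classes were above 1 for each member except Usp10 (8 of 11), and in the vehicle pair 10 of 11 were for each member except Ubap2l (7 of 11) and Usp10 (5 of 11), the class below 1 in the other 6 members being neutrophil-like. Over classes, the size of a partner's OVA log2 ratio went with that of G3bp1 at Pearson's r from 0.55 to 0.84 in the vehicle pair, where the median of all genes was 0.479, and from 0.13 to 0.75 in the ribavirin pair, where it was 0.0862. These are descriptions over 11 classes that share library totals. Ranks gave other values: Spearman's rho was −0.06 for Tial1 and 0.07 for Usp10 in the vehicle pair, against r of 0.69 and 0.56, and ran up to 0.73 for Tia1. In the ribavirin pair Usp10 was highest by both measures (r 0.75, rho 0.79), so no partner was at the top in both pairs.

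Other measures moved with OVA in the same classes. Leaving out neutrophil-like cells of the vehicle pair (a log2 ratio of −0.54), the median log2 ratio of all genes tested lay between 0.23 and 0.47 in the 11 classes and both pairs, so a typical gene was also higher in CPM. Ribosomal protein genes took a smaller share of UMIs with OVA in 11 of 11 classes in both pairs, with a ratio of shares between 0.333 and 0.702, and mitochondrial genes a larger share in 10 and 11 of 11 classes. Genes with longer transcripts had larger ratios, with a rank correlation across genes of 0.287 to 0.497. S100a8 and S100a9, abundant neutrophil transcripts, were together higher with OVA in 8 of 11 classes in the vehicle pair and lower in 10 of 11 in the ribavirin pair. Jchain, a plasma cell transcript, was lower in 11 of 11 and 7 of 11. The part of these measures in the members' CPM ratios was not tested beyond the following. Relative to genes of the same decile of transcript length, the median log2 ratio over classes was 0.03 and 0.01 for G3bp1 in the vehicle and ribavirin pairs, 0.13 and 0.06 for G3bp2 and 0.02 and 0.10 for Caprin1. On that scale Tia1 still stood above at 0.41 and 0.42, and Ubap2l (−0.38 and −0.30) and Usp10 (−0.48 and −0.31) below.

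To leave the scaling of libraries out, each partner was set against G3bp1 in the same cells, as UMIs of the partner per UMI of G3bp1. Ubap2l per G3bp1 UMI was lower with OVA in 11 of 11 classes in both pairs, with an interval below 1 in 10 classes of the vehicle pair and 9 of the ribavirin pair. G3bp1 itself lay above the median log2 ratio of all genes in 11 of 11 classes in both pairs, by a median of 0.30 and 0.22. A gene at that median was thus also lower per G3bp1 UMI in every class. Ubap2l lay above that median in 2 and 1 of 11 classes, with a median distance of −0.24 and −0.19. In macrophage-like cells Ubap2l per G3bp1 UMI was 1.59 in Vehicle, 1.07 in Vehicle-OVA, 1.73 in Ribavirin and 1.32 in Ribavirin-OVA. The ratio with OVA over that without was 0.673 (0.628 to 0.722) and 0.76 (0.703 to 0.822) there, and its median over classes was 0.738 and 0.754. The largest differences were in ILC2-like cells of the vehicle pair, 1.3 without OVA and 0.611 with OVA, a ratio of 0.47 (0.282 to 0.779), and in NK-like cells of the ribavirin pair, 1.49 without OVA and 0.879 with OVA, a ratio of 0.59 (0.452 to 0.769). Epithelial-like cells, which are not leukocytes, had ratios of 0.772 (0.612 to 0.974) and 0.866 (0.759 to 0.987). The difference was thus seen in myeloid, lymphoid and epithelial classes. The smallest differences were in neutrophil-like cells, at 0.992 (0.907 to 1.09) and 0.911 (0.804 to 1.03), where the interval held 1 in both pairs, and the interval also held 1 in pDC-like cells of the ribavirin pair, at 0.86 (0.718 to 1.03).

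**Figure D4:**
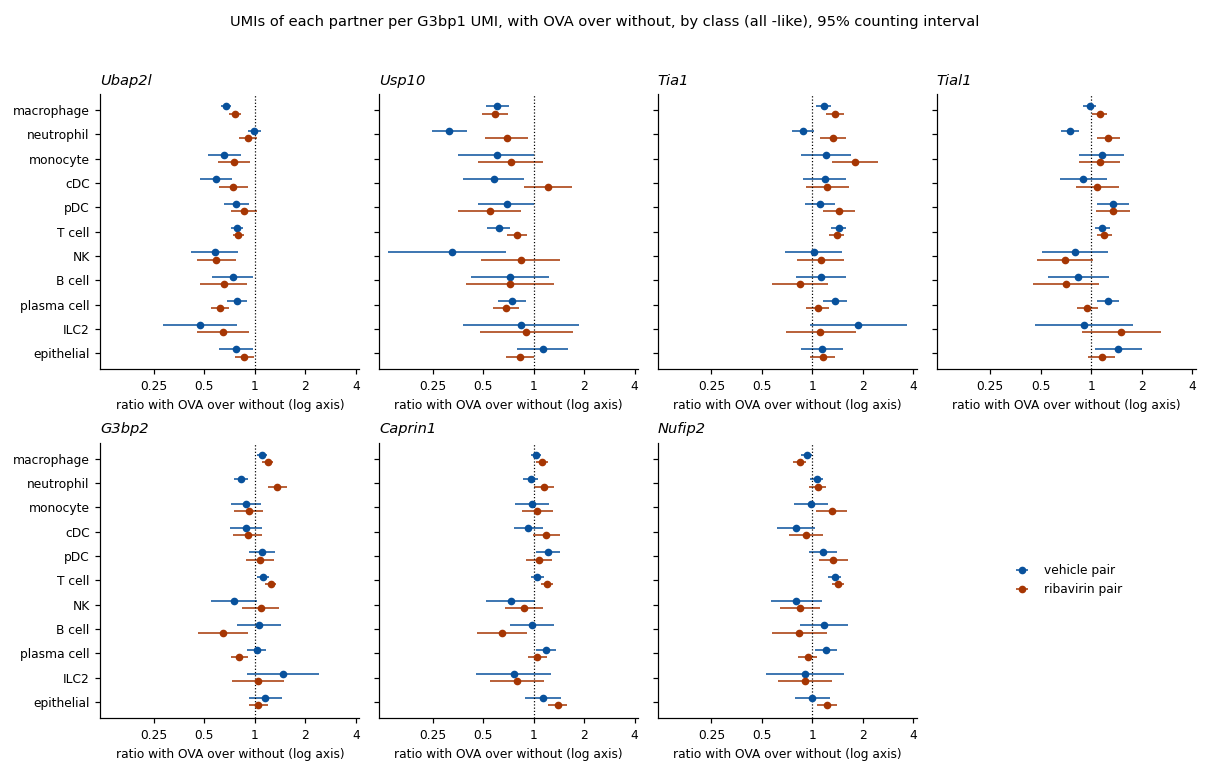
Ratio, with OVA over without, of partner UMIs per G3bp1 UMI (log axis) in 11 cell classes for the vehicle and ribavirin pairs, with exact 95% counting intervals. Ubap2l lies below 1 in 11 of 11 classes in both pairs, Usp10 below 1 in 10 of 11 and Tia1 above 1 in 10 of 11. G3bp1 itself lay above the median of all genes in 11 of 11 classes in both pairs, so a gene at that median would also lie below 1.

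Usp10 per G3bp1 UMI was lower with OVA in 10 of 11 classes in both pairs, with an interval below 1 in 6 and 5 classes and a median ratio of 0.619 and 0.731. In macrophage-like cells it was 0.176 in Vehicle, 0.107 in Vehicle-OVA, 0.178 in Ribavirin and 0.105 in Ribavirin-OVA, a ratio of 0.609 (0.521 to 0.711) and 0.588 (0.49 to 0.705). The exceptions were epithelial-like cells in the vehicle pair, at 1.13 (0.797 to 1.61), and cDC-like cells in the ribavirin pair, at 1.23 (0.882 to 1.69). Usp10 and Ubap2l, proteins known for opposite effects on granules, thus differed from G3bp1 in the same direction, as did a gene at the median of all genes. Usp10 lay above that median in 2 of 11 classes of the vehicle pair and 4 of 11 of the ribavirin pair. The share of all genes with such counts was not computed.

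Tia1 per G3bp1 UMI went the other way, higher with OVA in 10 of 11 classes in both pairs, with an interval above 1 in 3 and 5 classes and a median ratio of 1.17 and 1.23. In macrophage-like cells it was 0.271 in Vehicle, 0.316 in Vehicle-OVA, 0.267 in Ribavirin and 0.364 in Ribavirin-OVA, a ratio of 1.17 (1.05 to 1.3) and 1.36 (1.2 to 1.54). The exceptions were neutrophil-like cells in the vehicle pair, at 0.881 (0.761 to 1.02), and B cell-like cells in the ribavirin pair, at 0.841 (0.571 to 1.24). When each cell was thinned to 1000 UMIs, only 5 classes of the vehicle pair were above 1.

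The other 4 partners had no common direction against G3bp1 over classes. G3bp2 was above 1 in 7 of 11 classes in both pairs (median 1.05 and 1.05), Caprin1 in 5 and 8 (0.979 and 1.07), Tial1 in 5 and 8 (0.978 and 1.12) and Nufip2 in 5 and 5 (0.996 and 0.937). Caprin1 had an interval that left out 1 in 2 classes of the vehicle pair and in 5 of the ribavirin pair, of which 1 lay below. In macrophage-like cells Caprin1 per G3bp1 UMI was 1.15 in Vehicle, 1.18 in Vehicle-OVA, 1.26 in Ribavirin and 1.41 in Ribavirin-OVA, a ratio of 1.03 (0.958 to 1.1) and 1.12 (1.03 to 1.21). Nufip2 per G3bp1 UMI was lower with OVA in macrophage-like cells, 0.923 (0.853 to 0.999) and 0.84 (0.768 to 0.919), and higher in T cell-like cells, 1.36 (1.248 to 1.48) and 1.42 (1.31 to 1.54), in both pairs.

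Because Ubap2l (4073 bases) and G3bp2 (4232 bases) have transcripts of like length, unlike the longer G3bp1, their ratio was also taken, a comparison chosen after these values were seen. Ubap2l per G3bp2 UMI was lower with OVA in 10 of 11 classes in both pairs, with an interval below 1 in 9 and 9 and a median of 0.703 and 0.768. In macrophage-like cells of the vehicle pair it was 1.08 without OVA and 0.656 with OVA, a ratio of 0.61 (0.573 to 0.649). The exceptions were neutrophil-like cells of the vehicle pair, where the ratio was 1.2 (1.201, 1.11 to 1.3) and so higher beyond counting error, and B cell-like cells of the ribavirin pair, at 1.02 (0.739 to 1.39).

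Neutrophil-like cells gave opposite directions in the pairs. In the vehicle pair 4 of 8 members were at least 20% lower with OVA, where 60.5% of genes tested were, and in the ribavirin pair 6 of 8 were at least 25% higher, where 45.4% were. Usp10 was lowest of all in Vehicle-OVA, 3.13 CPM against 11.84 in Vehicle, a ratio of 0.264 (0.21 to 0.331), and 8.21 against 9.11 CPM in the ribavirin pair, 0.901 (0.681 to 1.18). The other members were 0.629-fold to 0.892-fold in the vehicle pair and 1.18-fold to 1.77-fold in the ribavirin pair. The median log2 ratio of all genes was −0.54 in the vehicle pair and 0.26 in the ribavirin pair. Relative to that median, 1 of 8 members in the vehicle pair, Usp10, was still lower, and 1 of 8, Nufip2, was higher. Of all genes tested 34.94% were higher on that scale, and the share that were lower was not computed. Neutrophil-like cells made up 26.3% of the cells kept in Vehicle, 59.9% in Vehicle-OVA, 32.23% in Ribavirin and 27.4% in Ribavirin-OVA, and ribosomal protein genes took 7.24%, 2.41%, 6.01% and 3.14% of their UMIs; the part of these measures in the result was not tested. Leaving out cells with a UMI of Siglecf, a gene of eosinophils and of some neutrophils, the log2 ratio in the vehicle pair was −1.43 in place of −1.92 for Usp10, 0.05 in place of −0.25 for G3bp1, −0.08 in place of −0.31 for Caprin1 and −0.04 in place of −0.26 for Ubap2l.

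Ribavirin itself went with small differences of the members outside neutrophil-like cells. Over the other 10 classes the 80 ratios of Ribavirin to Vehicle lay between 0.634 and 1.42, with a median of 0.991, an interval above 1 in 6 and below 1 in 7. The 80 ratios of Ribavirin-OVA to Vehicle-OVA lay between 0.734 and 1.72, with a median of 1.01, an interval above 1 in 3 and below 1 in 6. The share of all genes with such intervals was not computed. In neutrophil-like cells all 8 members were lower in Ribavirin than in Vehicle (0.77-fold to 0.861-fold) and all 8 higher in Ribavirin-OVA than in Vehicle-OVA (1.17-fold to 2.62-fold). The median log2 ratio of all genes in neutrophil-like cells had the same signs, −0.20 without OVA and 0.66 with OVA. By the rule for lower given above, 3 members and 30.07% of genes tested were lower in Ribavirin than in Vehicle. By that for higher, 7 members and 70.39% of genes were higher in Ribavirin-OVA than in Vehicle-OVA. The shared direction of all 8 members can therefore not be read as particular to them. These comparisons use the same libraries as those with OVA.

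The wider stress granule pathway was described in macrophage-like cells by 4 lists, read beside the shares of all genes given above. Of 25 other granule proteins, 16 were at least 25% higher with OVA in the vehicle pair and 17 in the ribavirin pair, and none was lower, with a median log2 ratio of 0.54 and 0.58 beside 0.23 for all genes in both pairs. This was not particular to macrophage-like cells. In T cell-like cells 18 and 19 were higher and 1 and 1 lower, with a median of 0.71 and 0.76 beside 0.37 and 0.39 for all genes. In plasma cell-like cells 22 and 22 were higher and none was lower. In neutrophil-like cells of the vehicle pair 7 were higher and 14 lower. In macrophage-like cells Rbms1, an RNA-binding protein, was highest on this list, at 132.4 CPM in Vehicle, 406.7 in Vehicle-OVA, 132.2 in Ribavirin and 349.4 in Ribavirin-OVA, 3.07-fold and 2.64-fold higher. Prrc2c, another granule protein, was lowest, at 217.8, 178.1, 210.4 and 181 CPM. Of 11 measured genes of processing bodies, the related granules of mRNA decay, 8 were higher in macrophage-like cells of the vehicle pair and 6 in those of the ribavirin pair, and none was lower (median log2 ratio 0.50 and 0.45). Their ends were Lsm14b, at 2.17-fold and 2.19-fold, and the exonuclease gene Xrn1, at 1.18-fold and 1.12-fold.

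The upstream and downstream lists had fewer such genes. Of 9 genes of the stress signal, the eIF2alpha kinases, phosphatase subunits and their targets, 2 were higher in the vehicle pair and 3 in the ribavirin pair, and 0 and 1 were lower (median log2 ratio 0.26 and 0.21). Ppp1r15b, which directs a phosphatase to eIF2alpha, was at 43.72 CPM in Vehicle, 111.1 in Vehicle-OVA, 48.85 in Ribavirin and 102.6 in Ribavirin-OVA, 2.54-fold (2.38 to 2.72) and 2.1-fold (1.95 to 2.26) higher. Eif2s1, which encodes eIF2alpha itself, was at 62.98, 57.08, 58.74 and 46.04 CPM, with ratios of 0.906 and 0.784. Of 7 tested genes of granule clearance, 2 were higher in each pair, and 1 and 0 were lower (0.16 and 0.17). Vcp, the segregase that takes granules apart, was at 199.9, 336.3, 196.1 and 290.2 CPM, 1.68-fold and 1.48-fold higher, while Zfand1 had 0.682-fold in the vehicle pair and 1.4-fold in the ribavirin pair. Of 82 ribosomal protein genes in the same cells, 73 and 69 were lower, of 8 cell cycle genes 6 and 2 were lower, and of 10 genes induced by tissue dissociation 6 and 3 were higher and 3 and 5 lower. Their part in the result was not tested.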

How the data were processed

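Single-cell RNA-seq of CD45+ nasal mucosa cells from 4 mouse groups was analysed, with 1 library per group (10x Chromium X). The deposited files held UMI counts per gene and cell, not normalized, which the authors had made with Cell Ranger 5.0.0 on mm10, per the submitters' processing notes. The annotation release is not given in the sources used here. Library totals, cell numbers and intervals give the depth.

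Cells with at least 500 UMIs, 200 genes and under 10% mitochondrial UMIs were kept. The labels give no cell types, so each cell was given to the class with the largest share of its markers detected, with at least 2 markers and a share at least 1.5 times that of every other class. This lead rule was set after the data were seen, in place of the planned rule of exactly 1 open gate. No doublet caller was run: cells without a lead were left out, and leaving out cells above the 95th UMI percentile of their class was an alternative. Free RNA in droplets was not removed. Of 15 classes with markers, 11 had at least 50 cells in every library.

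Sums of UMIs over the cells of a class in a library were given as CPM with exact Poisson intervals. Ratios have exact conditional binomial intervals, and ratios of partner UMIs per G3bp1 UMI, with OVA over without, exact conditional odds ratio intervals, all at 95%. No test across libraries was made, since each group is 1 library; a model with OVA and ribavirin as additive terms would leave 1 residual degree of freedom and was not run. Genes with at least 50 UMIs in a pair were the background. Named genes were the 8 members, the 5 genes with the highest mean r, and of each of 4 lists the gene with the highest and the lowest mean OVA ratio in macrophage-like cells. Members and lists were chosen with earlier results of these data known. Alternatives changed cell filters, gates, totals (edgeR 4.0.16 TMM factors among them), thinning, the fold and the correlation. Python 3.11.15, numpy 2.4.6, scipy 1.17.1, pandas 2.3.3 and R 4.3.3 were used, and the ratio and interval code was tested on simulated data. Transcript lengths came from GENCODE M21 and were found for 99% of genes. The paper's account of the animal model does not describe the ribavirin treatment.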

Additional observations from a re-analysis of the deposited data

Results flagged for a closer look

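In neutrophil-like cells 7 of 8 members had opposite directions with OVA in the 2 pairs, which is why they are listed here; with 1 library per group the difference between pairs was not tested. G3bp1 was 0.841-fold with OVA in the vehicle pair and 1.3-fold (1.296) in the ribavirin pair. G3bp2 was 0.694-fold and 1.77-fold, Caprin1 0.806-fold and 1.5-fold (1.498), and Ubap2l 0.834-fold and 1.18-fold. Tia1 was 0.741-fold and 1.72-fold, Tial1 0.629-fold and 1.64-fold, and Nufip2 0.892-fold and 1.4-fold (1.395). The median log2 ratio of all genes in neutrophil-like cells also had opposite signs, −0.54 in the vehicle pair and 0.26 in the ribavirin pair. The share of all genes with opposite directions in the 2 pairs was not computed. The count of 7 of 8 can therefore not be read as particular to the members. G3bp1 no longer had opposite directions without cells that had a Siglecf UMI (log2 ratio 0.05 in the vehicle pair) or with the mean of single-cell CPM (0.06), and Caprin1 and Ubap2l were near 0 without Siglecf UMIs, at −0.08 and −0.04.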

How the results depend on the processing

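No pairing by replicate was possible because each group is 1 library and the groups share no second replicate number, and no replicate could be left out for the same reason. OVA with ribavirin as a block, with 1 residual degree of freedom, was not fitted. Ubap2l per G3bp1 UMI stayed lower with OVA in 10 or 11 of 11 classes, and Usp10 per G3bp1 UMI in 8 to 11, under every alternative run. Counts of members past the fold depended on the scale. The 6 members higher with OVA in macrophage-like cells of the vehicle pair became 3 with TMM factors, 2 relative to genes of the same decile of transcript length and 3 at a fold of 1.5, and the 5 of the ribavirin pair became 2 relative to the length decile. In T cell-like cells the 6 members of each pair became 3 with TMM factors and 1 relative to the length decile. In neutrophil-like cells the 4 members lower in the vehicle pair became 7 at 2000 UMIs or more per cell, 7 with totals free of mitochondrial and ribosomal protein genes, 1 with TMM factors, 1 relative to the median of all genes, 1 relative to the length decile and 2 at a fold of 1.5. The 6 members higher in the ribavirin pair became 3, 3, 2 and 3 under the last 4 of these. Tia1 per G3bp1 UMI was higher in 5 rather than 10 classes of the vehicle pair after thinning to 1000 UMIs. At a fold of 1.5, the members higher in macrophage-like than neutrophil-like cells numbered 3 rather than 5 in Vehicle and 4 rather than 7 in Ribavirin-OVA. The mean r of Caprin1 was 0.653 (0.6535) after thinning, 0.811 as Spearman's rho and 0.765 without neutrophil-like cells, and that of Nufip2 0.467 without them. After thinning, Usp10 (0.691, 0.6905) and Tia1 (0.661) lay above Caprin1, and Tial1 went from 0.634 to 0.336.

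Single log2 ratios were recomputed in macrophage-like, neutrophil-like and T cell-like cells of both pairs, and the other classes through their median only. Of those that had passed the fold, 6 changed sign under at least 1 alternative. In neutrophil-like cells of the vehicle pair G3bp2 was 0.10 with TMM factors and 0.011 (0.01076) relative to the median of all genes, and Tia1 0.20 and 0.10. Relative to the length decile, G3bp1 was −0.095 in neutrophil-like cells of the ribavirin pair, −0.22 and −0.27 in T cell-like cells of the vehicle and ribavirin pairs, and Caprin1 −0.05 (−0.05486) in T cell-like cells of the vehicle pair. A lead of 2 for the class rule and totals without the 20 genes with the most UMIs were alternatives chosen after seeing the data, and neither moved a count past 1.5 times. Depth limited small classes and Usp10, whose lowest sums were under 50 UMIs.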
